A study of Homo sapiens with 4 samples.

Results

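Collagens and the enzymes that modify them were examined in A549 cells, a human lung adenocarcinoma line, after stable overexpression of CBX7, a chromatin reader of the Polycomb system. Members were all genes of the deposited table with a collagen chain symbol, which gave 44 genes, and 11 enzymes: the prolyl 4-hydroxylase subunits P4HA1 to P4HA3, the lysyl hydroxylases PLOD1 to PLOD3, and the lysyl oxidases LOX and LOXL1 to LOXL4. These 55 genes stood among 28278 in the table, and 45 of them had enough counts to be tested. RNA sequencing covered 2 libraries of a line made with a lentiviral CBX7 construct (OE_CBX7) and 2 libraries of a line made with a lentiviral control construct (Control, genotype given as WT). Each construct is represented by 1 stable line, and the sources used here do not say whether a line is a clone or a pool, nor whether libraries came from separate cultures. The p-values below therefore measure the spread between these libraries, which may be technical, and a difference between the constructs cannot be told apart from a difference between the lines.

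Collagens are trimers of chains that wind into a triple helix through short repeats that each start with glycine. Fibrillar collagens (types I, II, III, V, XI, XXIV and XXVII) give tissue its tensile strength, type IV builds the sheet of the basement membrane under epithelia, and fibril-associated and transmembrane collagens tie fibrils or cells to the matrix. Before secretion, prolyl and lysyl hydroxylases in the endoplasmic reticulum modify the chains. After secretion, lysyl oxidases create the cross-links that stiffen the fibres. Fibroblasts make most interstitial collagen in the lung, while epithelial cells such as A549 are better known for the basement membrane.

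Library totals were 90765502 and 88861255 estimated counts for OE_CBX7 and 88091494 and 69877585 for Control. Levels are given as CPM, counts scaled to the library total after TMM scaling, and group summaries as mean ± SD (n = 2 libraries a group). CBX7 itself was 2.17-fold higher in OE_CBX7, at 19.0 and 17.2 CPM against 8.0 and 8.73 CPM in Control (edgeR adjusted p = 0.000141). Of 8 epithelial markers, 5 reached a mean of 1 CPM in either group. The keratins KRT8 and KRT18 of simple epithelium were abundant, with KRT8 at 6650 ± 483 CPM in OE_CBX7 and 6900 ± 110 CPM in Control. By contrast KRT19 was at 0.176 ± 0.143 CPM in OE_CBX7 and 0.278 ± 0.248 CPM in Control. CDH1 was at 45.9 and 42.4 CPM (group means, OE_CBX7 first) and EPCAM at 1.6 and 0.919 CPM. NKX2-1 was higher in OE_CBX7, at 1.18 ± 0.13 CPM against 0.385 ± 0.118 CPM in Control (edgeR adjusted p = 0.0489). The surfactant genes SFTPB and SFTPC of alveolar type II cells had at most 10 counts in any library. Of 9 fibroblast markers, THY1 had 0 counts in every library. The 6 that are not collagens summed to 1.09 and 0.809 CPM in OE_CBX7 and 2.41 and 2.01 CPM in Control. FAP, at 1.66 and 0.938 CPM, was the largest part of the Control sums. PDGFRB had a mean of 0.0111 CPM in OE_CBX7 and 0.25 CPM in Control (edgeR adjusted p = 0.0685). Means lay the other way for LUM (0.483 against 0.313 CPM, edgeR adjusted p = 0.648) and PDGFRA (0.374 against 0.335 CPM, 0.928). They also did for DCN (0.0641 against 0.0147 CPM), which was too low to test. The 5 leukocyte markers summed to 3.26 and 2.65 CPM in OE_CBX7 and 1.36 and 1.36 CPM in Control, mostly from CD14. CD14 was higher in OE_CBX7 (log2 fold change 1.1, edgeR adjusted p = 0.0299), and CD3E was at 0 throughout. The 4 endothelial markers summed to 2.88 and 3.68 CPM in OE_CBX7 and 1.61 and 0.835 CPM in Control, mostly from CDH5. CDH5 was also higher in OE_CBX7 (log2 fold change 1.73, edgeR adjusted p = 0.00868). That was not so for PECAM1 (log2 fold change -0.09, edgeR adjusted p = 0.978) or VWF (-0.02, 0.995), and KDR was too low to test. The part of these marker levels in the collagen results was not tested.

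The type IV genes lie in head-to-head pairs, each pair starting from opposite strands of 1 stretch of DNA, and the enzymes P4HA1 and PLOD2 and the collagens COL12A1 and COL17A1 are among the 6 members whose calls held under every alternative below. Upstream sequences are shown for the COL4A1 and COL4A2 pair, whose RefSeq start sites lie 127 bases apart, for COL4A4 and COL4A3 (419 bases apart), and for those 4 genes. COL26A1, whose call also held throughout, and the COL4A6 and COL4A5 pair (380 bases apart) are not shown, so the set is not complete. The sequences shown are credited to RefSeq on build GRCh38.p14. The first is the whole interval between the start sites, chr13:110307158-110307283 on the plus strand. The others are the 250 bases before each RefSeq start, read 5′ to 3′ on the strand of the gene: chr2:227164206-227164455 (minus) for COL4A4, chr2:227164374-227164623 (plus) for COL4A3, chr6:75206054-75206303 (minus) for COL12A1, chr10:104085881-104086130 (minus) for COL17A1, chr10:73096867-73097116 (minus) for P4HA1 and chr3:146161185-146161434 (minus) for PLOD2. Capitals mark matches on either strand to the searched motifs GGGCGG (SP1 type), CCAAT (the CCAAT box), TGANTCA (AP-1 type), and a hypoxia response core, either ACGTG or, in a variant form, GCGTG. They also mark the ISRE motif, a pair of GAAA with any 2 bases between them, which is named for the interferon-stimulated response element. Overlapping matches would be capitalised as 1 run. In GENCODE 29 every gene shown except COL12A1 reaches farther upstream than the RefSeq start used here. The stretch of PLOD2 lies wholly inside the GENCODE 29 gene, and that of COL4A4 almost wholly. The COL4A1 and COL4A2 interval lies inside the GENCODE 29 gene COL4A2. For COL4A3, COL17A1 and P4HA1 a part of the stretch lies inside the gene.
COL4A1-COL4A2: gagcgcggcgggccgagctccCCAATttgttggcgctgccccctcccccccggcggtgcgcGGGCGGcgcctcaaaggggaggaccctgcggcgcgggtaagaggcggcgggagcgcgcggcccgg
COL4A4: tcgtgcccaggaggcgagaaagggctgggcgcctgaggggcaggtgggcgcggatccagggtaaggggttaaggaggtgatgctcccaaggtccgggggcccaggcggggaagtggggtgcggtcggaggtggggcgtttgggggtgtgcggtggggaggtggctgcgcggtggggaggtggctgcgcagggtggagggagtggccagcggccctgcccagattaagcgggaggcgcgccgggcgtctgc
COL4A3: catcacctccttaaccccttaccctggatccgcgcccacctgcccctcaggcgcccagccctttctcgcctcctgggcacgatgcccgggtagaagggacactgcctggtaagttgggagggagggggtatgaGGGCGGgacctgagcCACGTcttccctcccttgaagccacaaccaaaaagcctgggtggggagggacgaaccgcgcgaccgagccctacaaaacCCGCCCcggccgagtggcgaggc
COL12A1: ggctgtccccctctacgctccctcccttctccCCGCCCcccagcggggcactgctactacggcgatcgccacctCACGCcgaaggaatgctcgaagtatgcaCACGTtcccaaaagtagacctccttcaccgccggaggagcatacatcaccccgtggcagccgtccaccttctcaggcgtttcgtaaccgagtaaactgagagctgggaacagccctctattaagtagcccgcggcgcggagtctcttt
COL17A1: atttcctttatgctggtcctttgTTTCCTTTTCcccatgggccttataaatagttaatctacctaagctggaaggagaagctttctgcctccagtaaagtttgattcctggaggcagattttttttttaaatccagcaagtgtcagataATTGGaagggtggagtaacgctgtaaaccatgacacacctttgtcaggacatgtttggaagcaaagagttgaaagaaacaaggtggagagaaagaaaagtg
P4HA1: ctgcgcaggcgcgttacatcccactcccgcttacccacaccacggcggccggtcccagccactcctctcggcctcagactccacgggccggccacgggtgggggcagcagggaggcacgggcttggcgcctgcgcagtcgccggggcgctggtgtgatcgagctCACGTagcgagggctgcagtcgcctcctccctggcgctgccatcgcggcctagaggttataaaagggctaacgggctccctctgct
PLOD2: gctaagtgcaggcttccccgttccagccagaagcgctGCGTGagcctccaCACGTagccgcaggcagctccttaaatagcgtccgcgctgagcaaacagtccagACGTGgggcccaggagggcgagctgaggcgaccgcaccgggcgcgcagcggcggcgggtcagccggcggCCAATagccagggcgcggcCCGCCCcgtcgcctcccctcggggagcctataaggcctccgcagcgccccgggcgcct

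The COL4A1 and COL4A2 interval held 1 GGGCGG and 1 CCAAT. The COL4A4 stretch held none of these letter strings, while that of COL4A3 held GGGCGG at 2 places and ACGTG at 1. The PLOD2 stretch held ACGTG at 2 places, GCGTG at 1, CCAAT at 1 and GGGCGG at 1, and the P4HA1 stretch held a single ACGTG. The COL12A1 stretch held ACGTG at 1 place, GCGTG at 1 and GGGCGG at 1. COL17A1 had 1 CCAAT and 1 ISRE motif. Over windows of 300 bases (250 before the start and 50 after it), 41 members had an entry, 1 window a gene. LOXL2, a called member, had none. The windows of each type IV pair overlap, so 1 match can count for both genes. Of those 41 windows, 18 (43.9%) held ACGTG or GCGTG, against 48.4% of the 27305 windows of all genes. GGGCGG was in 23 of 41 (56.1%) against 44.6% of all windows, CCAAT in 13 (31.7%) against 35.7%, the ISRE motif in 1 (2.44%) against 3.65%, and TGANTCA in 0 against 7.76%. The member windows had a median GC content of 66.7%, against 58.3% over all windows. A match is a description of letters, not of a bound site.

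The members were expressed at very unequal levels. Because longer transcripts collect more reads, levels of different genes are compared as CPM per kilobase of merged exon (GENCODE 29 lengths). LOXL2, a lysyl oxidase-like enzyme that also cross-links type IV collagen, was the most abundant member, at 139 ± 3.60 CPM per kb in OE_CBX7 and 173 ± 3.78 in Control. PLOD2, which hydroxylates telopeptide lysines, followed at 55.6 ± 1.18 in OE_CBX7 and 89.1 ± 15.9 in Control. Among collagens the highest were the type IV chains COL4A6 (18.2 ± 0.847 in OE_CBX7, 20.5 ± 0.706 in Control) and COL4A5 (13.2 ± 0.896 in OE_CBX7, 12.8 ± 1.40 in Control), and COL18A1 (15 ± 1.05 in OE_CBX7, 11.8 ± 0.501 in Control), a basement membrane collagen whose C-terminal fragment is endostatin. COL18A1 and COL4A5 did not differ beyond their spread in Control. By contrast LOX was at 0.164 ± 0.0192 CPM per kb in OE_CBX7 and 0.239 ± 0.0457 in Control.

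**Figure D1:**
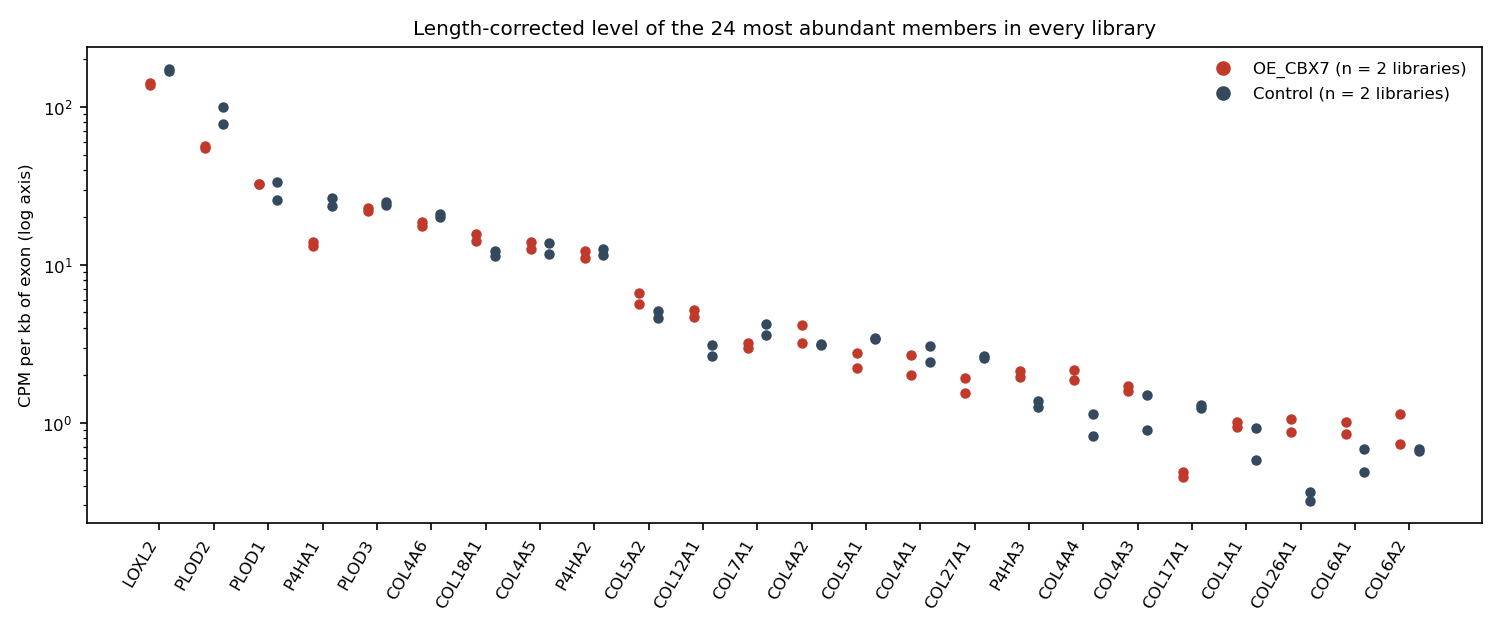
Length-corrected level (CPM per kb of exon, log axis) of the 24 members with the highest level, 1 point a library, OE_CBX7 left and Control right of each gene's mark. LOXL2 and PLOD2 lead, COL4A6, COL18A1 and COL4A5 are the highest collagens, and COL17A1 and COL26A1 show the widest gaps between the groups.

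Basement membrane collagens made up 73.9% and 74.0% of the summed collagen signal per kb in the OE_CBX7 libraries and 75.3% and 75.2% in Control. COL4A5, COL4A6 and COL18A1 alone gave 57.6% and 58.2% in OE_CBX7 and 59.1% and 59.7% in Control. Fibrillar collagens gave 15.1% and 14.0% in OE_CBX7 and 15.9% and 16.2% in Control. Fibril-associated collagens gave 6.73% and 7.09% in OE_CBX7 and 4.64% and 4.02% in Control, most of it COL12A1. Network-forming and beaded-filament collagens gave 3.64% and 4.2% in OE_CBX7 and 2.46% and 2.73% in Control. Transmembrane collagens gave 0.622% and 0.694% in OE_CBX7 and 1.69% and 1.80% in Control. Summed over all collagens the level was 84.0 and 76.3 CPM per kb in OE_CBX7 and 77.9 and 74.3 in Control, with the lower OE_CBX7 library below the higher Control library. In bulk RNA, fewer expressing cells and less RNA per cell cannot be told apart, and this holds for every difference below.

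OE_CBX7 was compared with Control to ask which of these genes differ when CBX7 is overexpressed. In edgeR's quasi-likelihood test with Benjamini-Hochberg adjustment over all genes tested, 11 of the 45 tested members passed an adjusted p of 0.05 (called below): COL12A1, COL18A1, COL26A1 and COL4A4 were higher in OE_CBX7, and COL5A1, COL5A3, COL17A1, COL27A1, P4HA1, PLOD2 and LOXL2 were lower. The remaining 34 were not called, and the median log2 fold change of the 45 was -0.06. The share called was 24.4%, the same as the 24.4% called among all 17271 genes tested, so the count as such is not a result about collagens. Among all genes 10.5% were called higher and 13.9% lower, with a median log2 fold change of -0.00015. With library totals in place of TMM the split was 5 higher and 5 lower among members and 2487 higher and 2033 lower among all genes, against 1809 higher and 2399 lower with TMM. Without OE_CBX7 library 2, members called lower numbered 4 instead of 7. Groups did not overlap in CPM for 29 of the 45 members, against 62.8% of all genes. A change of 2-fold or more was called for 4 members (COL4A4, COL26A1, COL5A3 and COL17A1), against 7.47% of all genes.

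**Figure D2:**
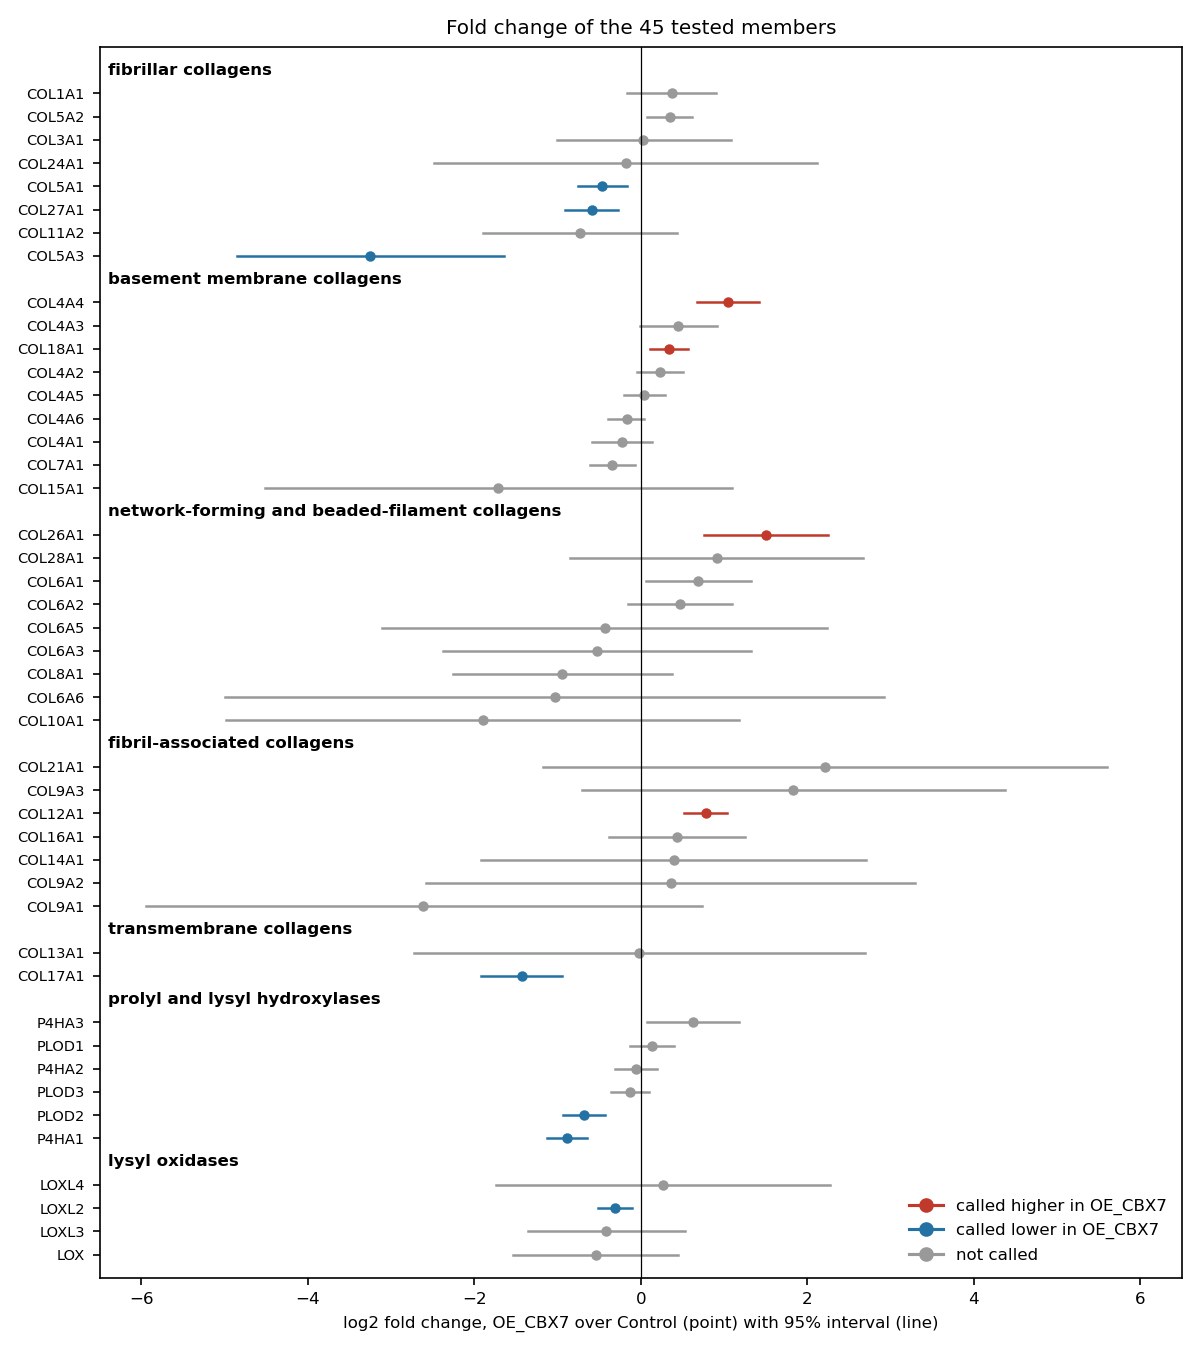
log2 fold change, OE_CBX7 over Control, of the 45 tested members by family (points) with 95% intervals (lines, from the edgeR fit); red is called higher in OE_CBX7, blue is called lower and grey is not called. Intervals are narrow for abundant genes such as COL4A5 (-0.20 to 0.29) and very wide for rare ones such as COL9A1 (-5.94 to 0.73).

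Among fibrillar collagens, 3 of 8 tested members were lower in OE_CBX7, none was higher and 5 were not called, with a median log2 fold change of -0.32; over all genes 10.5% were higher and 13.9% lower. Without OE_CBX7 library 2 or without Control library 1, only 1 of them was called. The median was -0.74 without OE_CBX7 library 1, -0.57 without Control library 1 and -0.48 without Control library 2, and -0.59 with DESeq2 or -0.58 with no low-count filter. COL27A1 (chromosome 9, 114155560 to 114312511, GRCh38), a fibrillar collagen best known from cartilage, had 14.8 and 12.1 CPM in OE_CBX7 and 20.5 and 20.0 CPM in Control. Its log2 fold change was -0.59 (SE 0.151, adjusted p = 0.0113), and without OE_CBX7 library 2 it was no longer called (-0.44, adjusted p = 0.179). COL5A1 (chromosome 9, 134641774 to 134844843), the main chain of type V collagen that helps to set fibril diameter, had 23.6 and 18.9 CPM in OE_CBX7 and 29.5 and 28.9 CPM in Control. The difference was -0.46 in log2 (SE 0.137) and was called (adjusted p = 0.0261). That call was lost without OE_CBX7 library 2, where the log2 difference was -0.30 (adjusted p = 0.337). It was also lost, at differences of -0.44, -0.46 and -0.39, without Control library 1 (0.0803), without Control library 2 (0.0724) and with library totals in place of TMM (0.0547). In both genes OE_CBX7 library 1 was nearer to Control than library 2 was.

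COL5A3 (chromosome 19, 9959561 to 10010471), a rarer chain of type V, showed the largest fold among called members but rested on few reads. It had 17 and 5 counts in OE_CBX7 and 114 and 65 counts in Control, which is 0.118 ± 0.0892 CPM and 1.14 ± 0.262 CPM. The log2 fold change was -3.25 (SE 0.745, adjusted p = 0.00601). Leaving out single libraries moved it between -4.32 and -2.63, and without Control library 1 it was no longer called (-2.99, adjusted p = 0.0743).

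COL5A2, the partner of COL5A1 in the common type V trimer, had 47.0 and 40.3 CPM in OE_CBX7 and 36.1 and 32.5 CPM in Control. Its log2 fold change was 0.35 (95% interval 0.08 to 0.61) and it was not called (adjusted p = 0.0578). It passed the threshold with DESeq2 (adjusted p = 0.0461), library totals (0.0276), no low-count filter (0.0372) and a mean count of 50 or more (0.0348). The ratio of COL5A1 to COL5A2 within a library, per kb, was 0.416 and 0.390 in OE_CBX7 and 0.677 and 0.737 in Control, with no overlap between the groups. For 2 libraries against 2, no two-sided exact permutation test of such a ratio can give a p below 0.333.

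COL1A1, the major chain of type I collagen, was at 6.80 and 6.32 CPM in OE_CBX7 and 3.94 and 6.26 CPM in Control (log2 fold change 0.37, 95% interval -0.16 to 0.90, adjusted p = 0.322). Leaving out single libraries moved this between 0.07 and 0.75, never past the threshold. Its usual partner COL1A2 had 0 and 9 counts in OE_CBX7 and 3 and 8 in Control and was too low to test. COL3A1 had 95 and 77 counts in OE_CBX7 and 85 and 57 in Control (adjusted p = 0.973). COL11A2 (adjusted p = 0.372) and COL24A1 (0.934) were not called, and COL2A1 and COL11A1 had at most 27 counts in any library and were not tested.

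**Figure D3:**
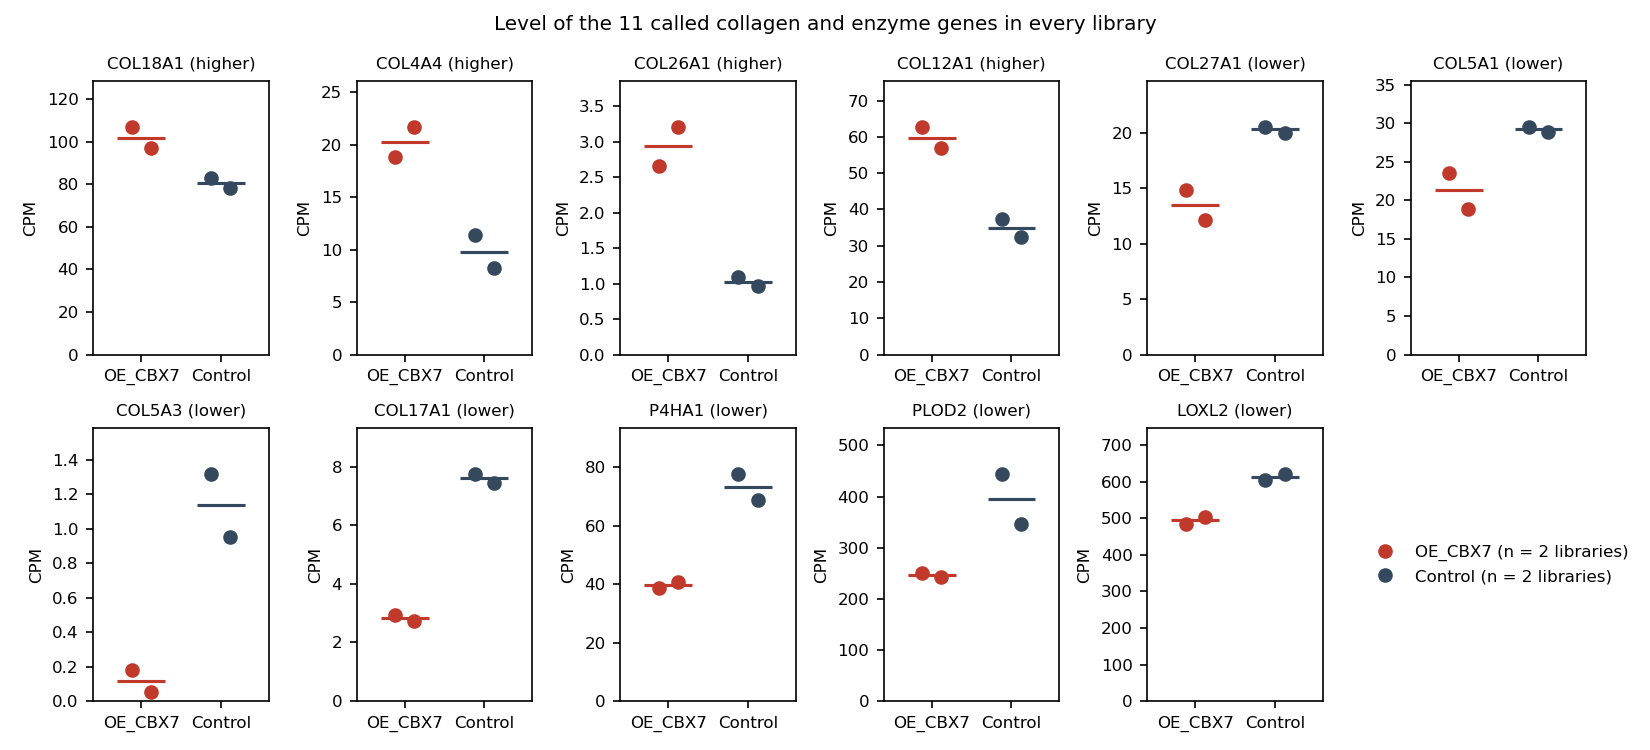
CPM (linear axis from 0) of the 11 called members in each library, OE_CBX7 left and Control right; horizontal bars are group means of n = 2. The groups do not overlap in any panel, and the gap is small against the level for LOXL2 and COL18A1 and wide for COL4A4, COL26A1, COL5A3 and COL17A1.

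Among basement membrane collagens, 2 of 9 tested members were higher in OE_CBX7 and 0 lower, leaving 7 without a call, with a median log2 fold change of 0.04. The count was 1 without OE_CBX7 library 1, OE_CBX7 library 2 or Control library 2, and 4 without Control library 1, where the median was 0.16. The share called was 22.2%, against 24.4% of all genes. COL4A4 (chromosome 2, 227002711 to 227164453), a chain of the α3α4α5 network found in lung and kidney basement membranes, had 18.8 and 21.7 CPM in OE_CBX7 and 11.4 and 8.27 CPM in Control. It rose 2.06-fold in OE_CBX7 (log2 fold change 1.05, SE 0.175, adjusted p = 0.000624) and was called under each of the 11 alternatives tried, with a log2 fold change of 0.84 to 1.30. COL4A3, which starts from the other strand of the same interval, had 13.8 and 12.9 CPM in OE_CBX7 and 12.1 and 7.30 CPM in Control. It was not called (log2 fold change 0.45, 95% interval -0.01 to 0.91, adjusted p = 0.146). Control library 2 was low for both genes, and COL4A3 was called without Control library 1 (0.87, adjusted p = 0.00851) but had a log2 fold change of only 0.14 without Control library 2 (adjusted p = 0.570). The ratio of COL4A4 to COL4A3 per kb was 1.10 and 1.37 in OE_CBX7 and 0.757 and 0.915 in Control.

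The other head-to-head pairs held no called gene. COL4A1, a ubiquitous type IV chain, had 20.2 and 15.2 CPM in OE_CBX7 and 23.2 and 18.2 CPM in Control (log2 fold change -0.23, 95% interval -0.59 to 0.14, adjusted p = 0.378). Its partner COL4A2 had 54.1 and 41.8 CPM in OE_CBX7 and 41.2 and 40.5 CPM in Control (0.23, interval -0.05 to 0.51, adjusted p = 0.235). The COL4A2 to COL4A1 ratio per kb was 1.55 and 1.59 in OE_CBX7 and 1.03 and 1.29 in Control. On chromosome X, COL4A5 had 108 and 98.2 CPM in OE_CBX7 and 108 and 92.4 CPM in Control (95% interval of the log2 fold change -0.20 to 0.29, adjusted p = 0.843). COL4A6, which starts 380 bases away, had 129 and 121 CPM in OE_CBX7 and 138 and 145 CPM in Control (-0.39 to 0.04, adjusted p = 0.242). For both of these abundant chains the intervals leave out a change of 2-fold in either direction.

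**Figure D4:**
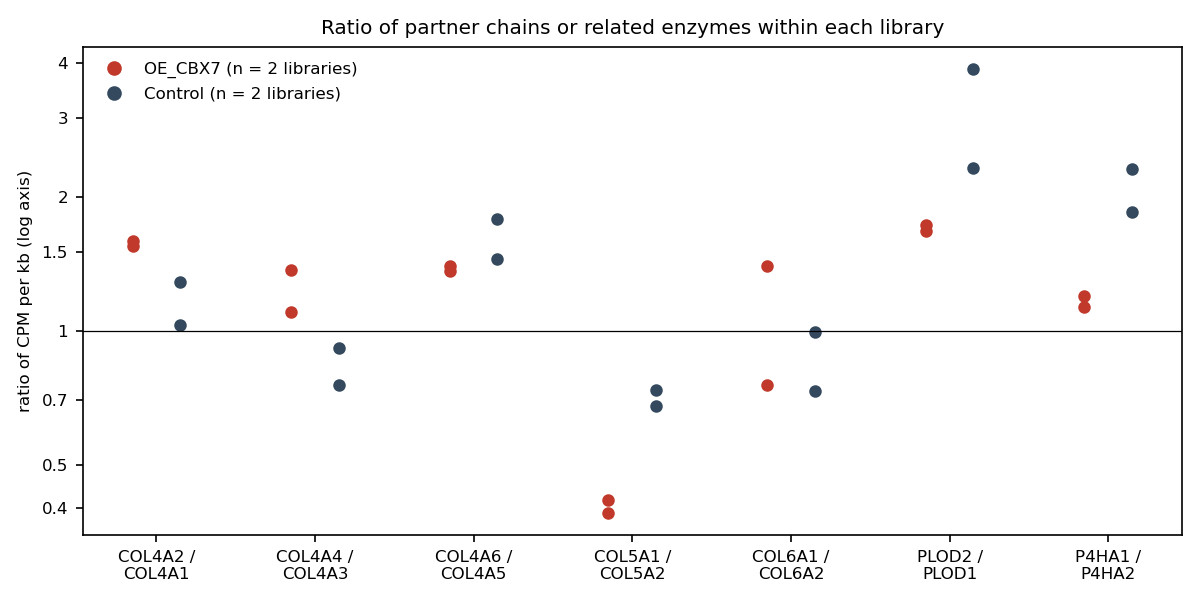
Ratio of CPM per kb (log axis) of partner chains or related enzymes within each library, OE_CBX7 left and Control right; the line marks a ratio of 1. COL5A1 to COL5A2, PLOD2 to PLOD1, P4HA1 to P4HA2 and COL4A6 to COL4A5 are lower in both OE_CBX7 libraries, COL4A2 to COL4A1 and COL4A4 to COL4A3 are higher, and COL6A1 to COL6A2 overlaps.

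COL18A1 (chromosome 21, 45405137 to 45513720) had 107 and 97.1 CPM in OE_CBX7 and 83.0 and 78.2 CPM in Control, a rise of 1.27-fold (log2 fold change 0.34, SE 0.108, adjusted p = 0.0331). The call was lost without OE_CBX7 library 1 (0.27, adjusted p = 0.291), OE_CBX7 library 2 (0.42, 0.0715) or Control library 2 (0.31, 0.0895). Strandedness is not given, but the antisense gene COL18A1-AS1 had 6 and 28 counts in OE_CBX7 and 7 and 41 in Control, against 5334 or more for COL18A1. COL7A1, which forms the anchoring fibrils of skin, had 29.6 and 27.8 CPM in OE_CBX7 and 33.5 and 39.3 CPM in Control and was not called (log2 fold change -0.34, 95% interval -0.61 to -0.07, adjusted p = 0.0614). It was called with a mean count of 50 or more (adjusted p = 0.0325) and without Control library 1 (0.0329). COL15A1 had 2 and 12 counts in OE_CBX7 and 36 and 6 in Control (adjusted p = 0.388).

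COL12A1 (chromosome 6, 75084326 to 75206051), a fibril-associated collagen that links fibrils to other matrix proteins, was the most abundant member of its class and the only one of its 7 tested genes to be called (14.3%, against 24.4% of all genes). It had 62.7 and 57.0 CPM in OE_CBX7 and 37.4 and 32.4 CPM in Control, 1.71-fold higher (log2 fold change 0.78, SE 0.120, adjusted p = 0.000326). Every alternative kept the call, with a log2 fold change of 0.68 to 0.89. COL16A1 came next, at 1.59 and 2.69 CPM in OE_CBX7 and 1.80 and 1.36 CPM in Control (adjusted p = 0.460). COL9A1, COL9A2, COL9A3, COL14A1 and COL21A1 had at most 32 counts in any library and were not called. COL19A1, COL20A1 and COL22A1, with at most 20 counts in any library, were too low to test. COL19A1 had 0 counts in both Control libraries and 4 and 5 in OE_CBX7, close to the floor of 3 counts. LMBRD1, on the opposite strand, overlaps 1.04% of the COL19A1 exon length and had at least 1590 counts in each library. TCFL5 likewise overlaps 1.8% of the COL9A3 exon length, with at least 1517 counts in each library. The few reads of COL19A1 and COL9A3 are therefore uncertain.

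Among network-forming and beaded-filament collagens, 1 of 9 tested genes was called higher, none lower and 8 were not called (11.1% called, against 24.4% of all genes). COL26A1 (chromosome 7, 101362820 to 101559024), a collagen first described in testis and ovary and grouped here with this class, had 249 and 290 counts in OE_CBX7 and 95 and 66 in Control. That is 2.94 ± 0.393 CPM in OE_CBX7 and 1.03 ± 0.0958 CPM in Control, a 2.83-fold rise (log2 fold change 1.5, SE 0.347, adjusted p = 0.00629). It kept its call under each alternative, though only just without OE_CBX7 library 2 (adjusted p = 0.0472). Type VI chains form beaded filaments around cells. COL6A1 had 3.63 and 4.35 CPM in OE_CBX7 and 2.07 and 2.89 CPM in Control and was not called (log2 fold change 0.69, adjusted p = 0.105). COL6A2 had 5.00 and 3.23 CPM in OE_CBX7 and 2.93 and 3.02 CPM in Control (0.47, adjusted p = 0.274). The third chain, COL6A3, had 20 and 36 counts in OE_CBX7 and 48 and 22 in Control (adjusted p = 0.726). COL6A5 (adjusted p = 0.854), COL6A6 (0.751), COL8A1 (0.305), COL10A1 (0.381) and COL28A1 (0.476) were not called. COL8A2 had at most 8 counts in any library and was not tested.

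COL17A1 (chromosome 10, 104031286 to 104085957) was the only transmembrane collagen above 1 CPM. It encodes the hemidesmosome protein also known as BP180, which fastens basal epithelial cells to the basement membrane. It had 2.93 and 2.73 CPM in OE_CBX7 and 7.77 and 7.43 CPM in Control, 2.69-fold lower in OE_CBX7 (log2 fold change -1.43, SE 0.228, adjusted p = 0.000426). Replicates lay close together, and the call held under each alternative with a log2 fold change of -1.48 to -1.36. COL13A1 had 9 and 20 counts in OE_CBX7 and 4 and 19 in Control (adjusted p = 0.996). COL25A1 had 5 and 6 counts in OE_CBX7 and 0 in both Control libraries, and COL23A1 had 0 in both OE_CBX7 libraries and 3 in each Control library; neither was tested.

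Of the enzymes, 3 of 10 tested were lower in OE_CBX7, none was higher and 7 were not called, with a median log2 fold change of -0.22. The share called was 30.0%, against 24.4% of all genes, of which 13.9% were lower. P4HA1 (chromosome 10, 73007217 to 73096974), a catalytic subunit of the prolyl 4-hydroxylase that stabilises the triple helix, had 38.6 and 40.6 CPM in OE_CBX7 and 77.9 and 68.9 CPM in Control. It was 1.86-fold lower (log2 fold change -0.89, SE 0.112) and had the smallest adjusted p of all members, 5.5e-05. The related subunit P4HA2 had 40.9 and 45.6 CPM in OE_CBX7 and 42.7 and 47.3 CPM in Control (95% interval of the log2 fold change -0.31 to 0.20, adjusted p = 0.788). The ratio of P4HA1 to P4HA2 per kb was 1.2 and 1.13 in OE_CBX7 and 2.31 and 1.85 in Control. P4HA3 had 4.84 and 4.46 CPM in OE_CBX7 and 2.87 and 3.14 CPM in Control and was not called (log2 fold change 0.63, 95% interval 0.08 to 1.18, adjusted p = 0.0916). The shared β subunit P4HB, not a member, was at 1000 ± 33.2 CPM in OE_CBX7 and 1020 ± 75.9 CPM in Control (adjusted p = 0.873).

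PLOD2 (chromosome 3, 146069440 to 146163653) had 251 and 243 CPM in OE_CBX7 and 445 and 346 CPM in Control, 1.6-fold lower (log2 fold change -0.68, SE 0.115, adjusted p = 0.000700). The Control libraries lay farther apart than those of OE_CBX7, and without single libraries the fold ranged between -0.84 and -0.48 (log2) with the call kept. PLOD1, which hydroxylates lysines of the helix, had 96.1 and 95.6 CPM in OE_CBX7 and 76.1 and 98.5 CPM in Control (95% interval -0.13 to 0.40, adjusted p = 0.495). PLOD3, which also adds sugars to hydroxylysine, had 66.5 and 64.1 CPM in OE_CBX7 and 69.5 and 73.2 CPM in Control (-0.36 to 0.10, adjusted p = 0.434). The ratio of PLOD2 to PLOD1 per kb was 1.73 and 1.68 in OE_CBX7 and 3.87 and 2.32 in Control. Whether PLOD2 and P4HA1 differ in fold change from the other hydroxylases was not tested.

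Lysyl oxidases were dominated by LOXL2 (chromosome 8, 23297189 to 23425328). It had 486 and 504 CPM in OE_CBX7 and 604 and 623 CPM in Control, 1.24-fold lower (log2 fold change -0.31, SE 0.0931, adjusted p = 0.0264). This small difference was not called when any 1 library was left out (adjusted p of 0.0548 to 0.177) or with library totals (0.0648), and was called under the other 6 alternatives. LOX itself had 73 and 83 counts in OE_CBX7 and 121 and 73 in Control (log2 fold change -0.54, 95% interval -1.53 to 0.45, adjusted p = 0.444). LOXL3 had 96 and 80 counts in OE_CBX7 and 120 and 79 in Control (adjusted p = 0.555). HTRA2, on the opposite strand, overlaps 15.2% of the LOXL3 exon length and had at least 1685 counts in each library, so reads of LOXL3 are uncertain. LOXL4 was not called (adjusted p = 0.884), and LOXL1, with at most 9 counts, was not tested.

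**Figure D5:**
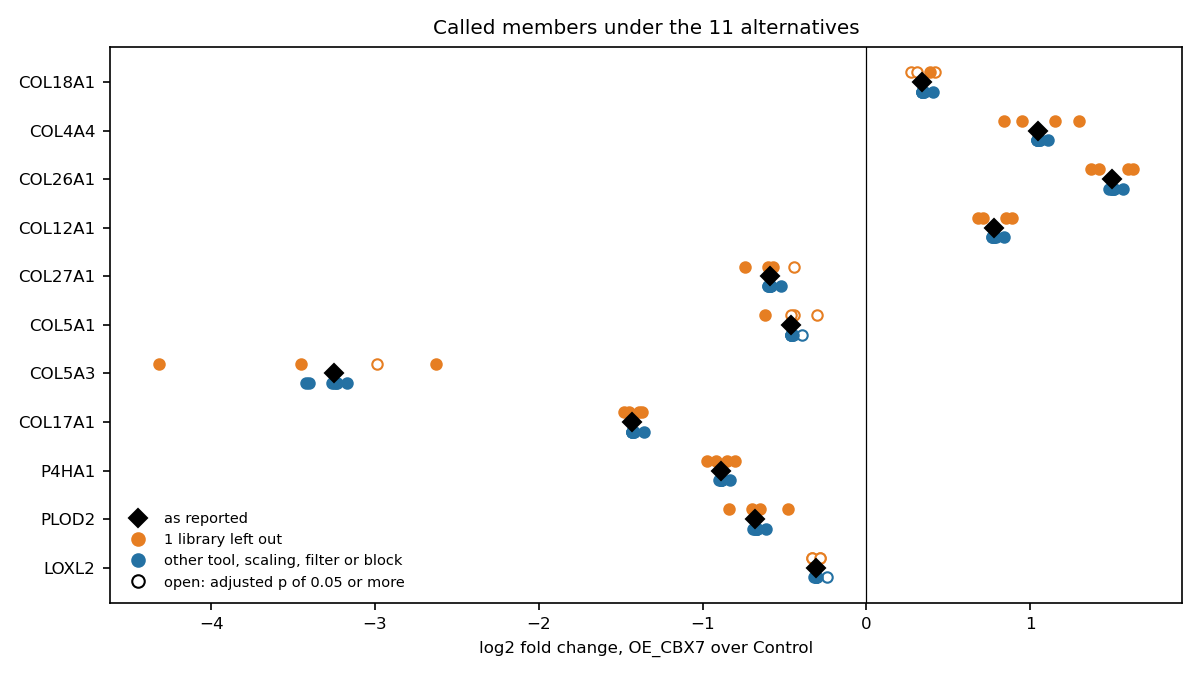
log2 fold change, OE_CBX7 over Control, of the 11 called members as reported (diamonds), with 1 library left out (orange) and with another tool, scaling, filter or a replicate block (blue); open points have an adjusted p of 0.05 or more. COL4A4, COL26A1, COL12A1, COL17A1, P4HA1 and PLOD2 have filled points throughout, and no gene crosses 0.

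Genes that act around collagen were read from lists written together with the member families. Of 18 genes for folding, glycosylation and export, 2 were higher in OE_CBX7, 1 was lower and 15 were not called (16.7% called, against 24.4% of all genes; median log2 fold change 0.15). Without OE_CBX7 library 1, 1 was called and the median was 0.08, and without Control library 2, 5 were called and it was 0.07. The median was 0.06 with a mean count of 50 or more and 0.12 without Control library 1. It was 0.2 without OE_CBX7 library 2 and 0.22 with library totals. SEC24D, a COPII coat protein needed to export procollagen, had 48.2 and 41.5 CPM in OE_CBX7 and 81.0 and 75.2 CPM in Control (log2 fold change -0.80, adjusted p = 0.000186). P3H3, of the prolyl 3-hydroxylase family, had 27.8 and 25.1 CPM in OE_CBX7 and 16.8 and 18.8 CPM in Control (0.57, adjusted p = 0.00728), and lost its call without OE_CBX7 library 1 (0.0978). FKBP10, a procollagen chaperone that acts with PLOD2, had 162 and 152 CPM in OE_CBX7 and 119 and 130 CPM in Control (0.33, adjusted p = 0.0278); it lost its call without OE_CBX7 library 1 (0.238), OE_CBX7 library 2 (0.0739) or Control library 1 (0.102). SERPINH1, the collagen chaperone HSP47, was at 49.9 ± 5.41 CPM in OE_CBX7 and 46.1 ± 0.376 CPM in Control (adjusted p = 0.532).

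Of 14 tested genes for procollagen processing and matrix assembly, 2 were called higher, 0 lower, and the other 12 missed the threshold (14.3% called, against 24.4% of all genes). Fibronectin, FN1, on which fibrils assemble, had 1870 and 1860 CPM in OE_CBX7 and 1170 and 1090 CPM in Control, 1.65-fold higher (adjusted p = 6.13e-05). The basement membrane proteoglycan perlecan, HSPG2, had 217 and 233 CPM in OE_CBX7 and 155 and 151 CPM in Control, 1.47-fold higher (adjusted p = 0.000746). The procollagen C-proteinase BMP1 was at 47.2 ± 2.52 CPM in OE_CBX7 and 42.6 ± 2.38 CPM in Control (adjusted p = 0.401).

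Of 9 tested collagen receptors, 1 was higher, 1 lower and 7 not called (22.2% called, against 24.4% of all genes). ITGA2, the α2 chain of a collagen-binding integrin, had 78.7 and 65.1 CPM in OE_CBX7 and 232 and 176 CPM in Control, 2.84-fold lower (adjusted p = 6.16e-06). MRC2, an endocytic receptor that takes up collagen fragments, had 111 and 101 CPM in OE_CBX7 and 44.9 and 58.1 CPM in Control, 2.06-fold higher (adjusted p = 5.45e-05). The kinase receptor DDR1 was at 176 ± 9.21 CPM in OE_CBX7 and 150 ± 23.3 CPM in Control (adjusted p = 0.180).

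Of 6 tested collagen-degrading proteases, 2 were lower, none higher and 4 not called, and both that were lower are rare transcripts. The share called was 33.3%, against 24.4% of all genes. FAP, a surface protease known from activated fibroblasts and also on the marker list above, had 0 and 3 counts in OE_CBX7 and 143 and 64 counts in Control. The summed counts, scaled to library size, gave a ratio of 82.2, Control over OE_CBX7 (95% counting interval 27.7 to 402). In the edgeR fit, a separate estimate, FAP was 72.8-fold lower in OE_CBX7 (adjusted p = 0.000398). MMP13, a collagenase, had 4 and 0 counts in OE_CBX7 and 102 and 44 in Control (adjusted p = 0.00338), and was no longer called without Control library 1 (0.0748). The counting interval of FAP covers counting error only. All 3 OE_CBX7 counts of FAP came from library 2, and its log2 fold change was -6.19 in the fit, -9.75 without that library, and -5.22 without OE_CBX7 library 1. MMP13 was at -5.31, and likewise at -9.22 without OE_CBX7 library 1, which held its 4 counts. Against a group with only 0 counts these fitted values depend on the prior count.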

How the data were processed

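RNA sequencing of total RNA from A549 cells gave 1 estimated count per gene and library in the deposited table, for 28278 genes keyed by symbol. The tools listed in the submitters' processing notes are StringTie 2.2.1, HISAT2 2.2.1 and DESeq2, and the build is hg38; no roles are assigned. The counting annotation, its strand setting and how shared reads were split were not stated in the sources used here. All values of the deposited estimated counts were already whole, so rounding changed 0 of them. A listed 0 may mean no reads or an estimate that failed.

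Groups came from the sample titles. Genes were filtered with filterByExpr, scaled with TMM and tested in edgeR 4.0.16 (R 4.3.3) with a robust quasi-likelihood fit, OE_CBX7 over Control, on all 4 libraries. Benjamini-Hochberg adjustment ran over all 17271 genes tested, and every adjusted p is from this test unless another tool is named. Each SE is the fitted log2 change over the root of its F value, and 95% intervals from the SE and the fit's degrees of freedom. CPM per kb divides by merged exon length in the GENCODE 29 basic annotation (GRCh38), which also gave gene positions; the counting annotation may differ, which touches levels across genes but not fold changes. The count tests (edgeR, limma-voom, DESeq2) were tested on simulated data. The simulated counts used the dispersion trend of these libraries, with folds set only in genes of 50 or more expected counts. Their outcome is not given here. Alternatives were DESeq2 1.42.0, limma-voom (limma 3.58.1), RLE factors, library totals, no filter or a mean count of 50 or more, a replicate block, and leaving out each library.

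Members and gene lists were chosen with earlier results of these data known, so lists are described by counts and medians without a test. Members called or at 5 CPM or more were given in every library and the others by adjusted p or counts. Up to 4 called genes were named from each surrounding list. The fuller values of lower members (COL3A1, COL6A1, COL6A2, COL6A3, COL13A1, COL15A1, COL16A1, P4HA3, LOX and LOXL3), and P4HB, SERPINH1, BMP1 and DDR1, were chosen after their values were seen. Protein sequences were not used here.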

Additional observations from a re-analysis of the deposited data

How the results depend on the processing

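Of the 11 called members, 6 kept their call and direction under all 11 alternatives: COL4A4, COL26A1, COL12A1, COL17A1, P4HA1 and PLOD2. Members called higher numbered 4 (3 to 5 with 1 library left out) and members called lower numbered 7 (4 to 6). With library totals in place of TMM the members split into 5 higher and 5 lower, and all genes into 2487 higher and 2033 lower, against 1809 and 2399; the median of all genes was then 0.066. Genes called higher ranged from 1021 (without OE_CBX7 library 1) to 1790 with 1 library left out. By family with 1 library left out, called members ranged from 1 to 3 for fibrillar collagens, 1 to 4 for basement membrane collagens and 0 for lysyl oxidases, which also had 0 with library totals. Folding and export genes called ranged from 1 to 5 and collagen-degrading proteases from 1 to 2, with 1 at a mean count of 50 or more, where MMP13 was left out by the filter. Among genes that were not called, signs turned for COL4A5 (-0.06 to 0.16 with 1 library left out), P4HA2 (0.01 with library totals, -0.13 to 0.03 with 1 library left out) and PLOD1 (-0.04 to 0.34). The cause was not tested. Where an arm is left with 1 library, that library is assumed to vary like the other group.

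Replicate numbers are shared by the groups, but nothing says that they pair libraries. Deviations of same-numbered libraries from their group means correlated at 0.108 across genes. With the replicate block 5 members were called higher and 7 lower, COL5A2 being added (adjusted p = 0.0311), and 2100 genes were higher and 2503 lower. Members under 1 CPM had at most 95 counts in a library, and none was called; the 23 tested but uncalled members under 5 CPM had SEs of 0.257 to 1.83, so changes of 2-fold were often not detectable at this depth.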
